A study of Mus musculus with 6 samples.

Results

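Molecular chaperones, their co-chaperones and a pair of cold-inducible RNA-binding genes were examined by gene symbol. A symbol counted as a member when it began with Hspa, Hspb, Hspd, Hspe, Hsph, Hsp90, Dnaja, Dnajb, Dnajc, Bag or Cct followed by a digit, or when it was Cirbp, Rbm3, Hsf1, Hsf2, Chordc1, Ahsa1 or Tcp1. This took in 81 of the 13724 gene entries of the table, with 80 distinct symbols. The pattern asks for a digit directly after Hsp90, so 0 Hsp90 genes were members, and Hsp90aa1, Hsp90ab1, Hsp90b1 and Trap1 are described as related genes. The members were 14 entries of the Hsp70 and Hsp110 family, 39 with a J-domain symbol (4 Dnaja, 10 Dnajb and 25 Dnajc), 10 of the CCT chaperonin, 5 small heat shock entries, 5 of the BAG family, the chaperonin pair Hspd1 and Hspe1, the heat shock factors Hsf1 and Hsf2, the Hsp90 co-chaperones Ahsa1 and Chordc1, and Cirbp and Rbm3.

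The libraries came from wild type C57Bl6/J mice that had been exposed to warmth, in 3 numbered warm challenges. The anterior hypothalamus was dissected from 0.5 mm brain sections, and the labels call the tissue preoptic neurons. Each challenge gave 1 library of total RNA (input) and 1 library of RNA immunoprecipitated with an antibody against ribosomal protein S6 phosphorylated at sites 244 and 247 (IP), a method called PhosphoTRAP. Phosphorylation of S6 follows neuronal activity, so the IP is meant to hold the transcripts that active neurons were translating. All 6 libraries come from warm-exposed mice, and without a group at another temperature no value here measures the effect of warmth. The labels give neither the age of the mice nor how many were pooled, so the p-values measure the spread between libraries. Without pairing this is the spread among the 3 libraries of each fraction. With the warm challenge as a block it is the spread between the 3 pairs.

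Hsp70 proteins bind unfolded stretches of other proteins and release them in a cycle driven by ATP. J-domain proteins deliver clients to Hsp70 and start the cycle, while BAG and Hsp110 proteins exchange its nucleotide and end it. The CCT ring folds actin and tubulin, and Hspd1 with Hspe1 forms the folding chamber of mitochondria. Heat activates the transcription factor HSF1, which induces Hspa1a, Hspa1b and several partners, whereas Cirbp and Rbm3 encode RNA-binding proteins whose levels rise when cells are cooled and fall when they are warmed. In brain, many chaperones are expressed at a constant high level in neurons, among them Hspa8, which also uncoats clathrin vesicles at synapses.

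Levels are RPKM, reads scaled to gene length and library size, so they can be set side by side between genes. Differences between fractions are log2 folds of IP against input on the scale of log2(RPKM + 1), a scale on which changes at low RPKM look smaller than they are. Of the 81 entries, 80 had at least 1 RPKM in 3 or more libraries and were tested with the other genes, 12328 in all, by limma with Benjamini-Hochberg adjustment. Dnajc25, at 0.228 to 2.18 RPKM, was not tested. Hspb3 was under 1 RPKM in all inputs and passed the filter only through the IP libraries, so its difference was partly built in. Summed RPKM lay between 374708 and 496125 per library. Leaving out IP 1 raised the number of all genes called from 516 (4.19%) to 1693 (13.8%), so results that turn on IP 1 are given with and without it.

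With all 6 libraries and no pairing, the limma fit called 0 members higher and 0 lower in IP (adjusted p threshold 0.05), where 0.892% of all genes tested were higher and 3.29% lower. In these bulk libraries, fewer cells of a type and less RNA per cell cannot be told apart. At an unadjusted p under 0.05, 17 members were counted, or 21.2%, against 24.4% of all genes. With the warm challenge as a replicate block, 3 members rose in IP (Hspa1a, Hspa1l and Dnajb5) and 1 fell (Dnajb2), against a background of 1.33% higher and 3.99% lower among all genes. Without IP 1 and without the block, Hspa1a, Hspa1l and Dnajb5 were again higher and Bag4 was lower, at a background of 3.62% higher and 10.2% lower. In the simulated libraries 20.1% of 2-fold and 79.2% of 4-fold changes were recovered, so a missed threshold does not show that a member was equal in both fractions. The changed genes were drawn from those at higher input levels, so these rates do not cover members of low RPKM such as Hspa1a. Median scaling called 0 members in either direction (background 0.925% higher and 0.835% lower), and quantile normalization called 1 higher, Hspb3 (1.05% and 1.01%). The difference of Hspb3 was partly built in by the filter. Block and median scaling together called Hspa1a, Hspa1l, Dnajb5 and Bag3 higher and 0 lower (1.7% and 1.35%). The median log2 fold of the members was -0.08, beside -0.18 for all genes tested. Median scaling moves every fold by the same amount, so it could not change this distance (0.09 and -0.01). After quantile normalization the medians were -0.02 for the members and -0.01 for all genes.

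All 3 IP values lay above all 3 input values for 8 of the 80 members tested, or 10%, where 6.85% of all genes did so. These were Hspa1a, Hspa1l, Hspa4, Hspa5, Hspa8, Hsph1, Dnajb5 and Hspb3. For Hspb3 the filter fixed this in advance, since only its 3 IP values passed it. All 3 IP values lay below all 3 input values for 13 members, or 16.2%, where 23.5% of all genes did so. Of these, 7 were Dnajc genes, 3 were Dnajb genes (Dnajb2, Dnajb9 and Dnajb14), and the others were Bag2, Bag4 and Hsf2. Within the challenges, IP exceeded its own input all 3 times for 11 members (13.8%, all genes 14%) and lay below it all 3 times for 25 (31.2%, all genes 37.5%). Hspb3, again fixed by the filter, was among the 11.

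**Figure D1:**
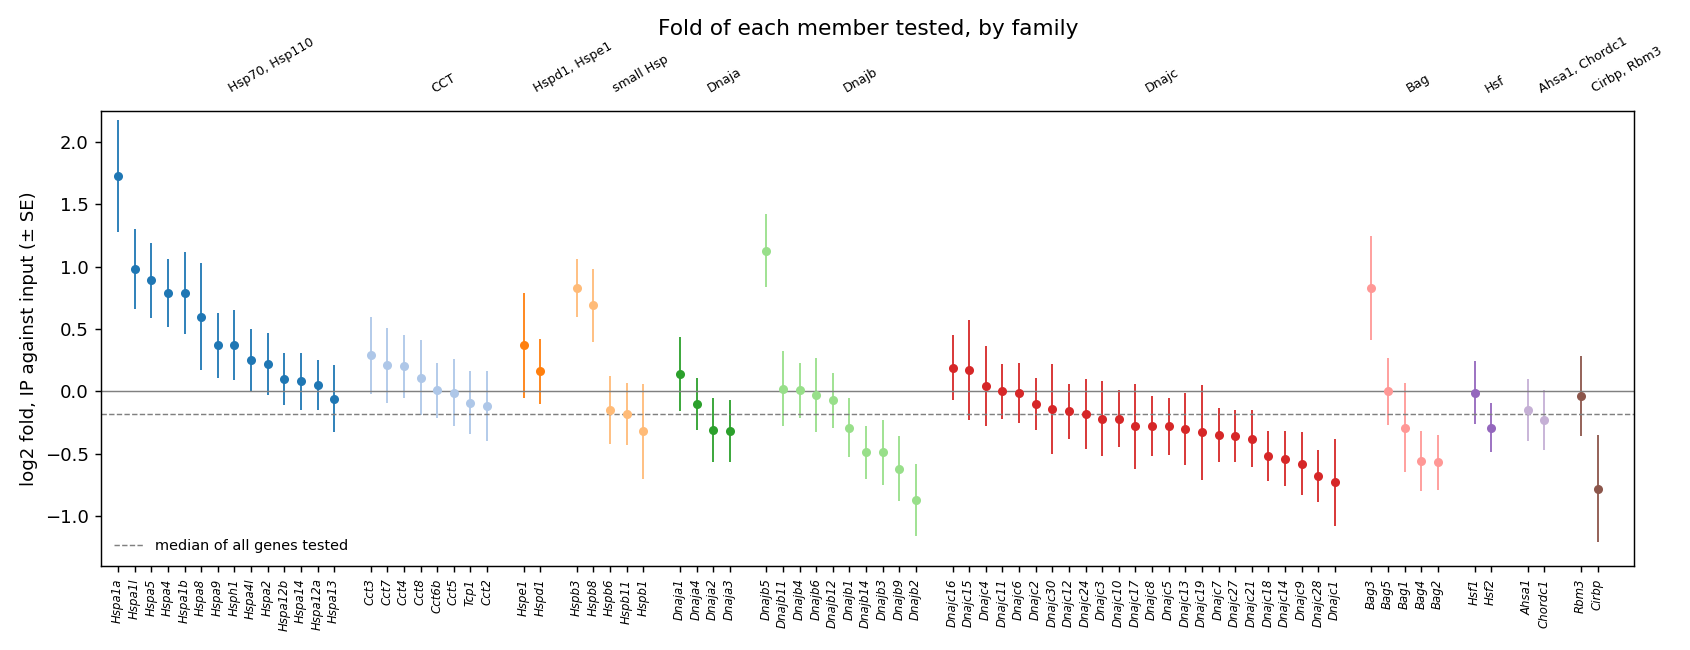
Log2 fold of IP against input for each member tested (points, with the standard error of the limma fit as bars), grouped by family, with the 2 Cct6a entries left out. The dashed line is the median of all genes tested, -0.18. Hsp70 and Hsp110 genes fill the upper left, up to 1.73 for Hspa1a, and most Dnajc genes lie below 0.

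The Hsp70 and Hsp110 family held most of the upper folds. Of its 14 members tested, 13 had a positive fold, where 4288 of all 12328 genes did, and the family median was 0.37 (0.54 after median scaling, 0.18 without IP 1). In the unblocked fit 0 of the 14 passed, and in the blocked fit 2 were higher. Summed over the family, the level was 2235, 2236 and 2244 RPKM in inputs 1, 2 and 3, and 4370, 3010 and 2758 RPKM in IP 1, 2 and 3. The input sums were nearly equal and every IP sum lay above them, with IP 1 far above the other IP libraries. Hspa8 made up most of each sum, at 1666, 1618 and 1556 RPKM in inputs 1 to 3. The sums thus mainly follow that gene and do not describe the family as a whole. Neuronal markers moved to the same side, with 9 of 10 folds positive and a median of 0.53, and their part in the family's folds was not tested.

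Hspa1a, the stress-inducible Hsp70, had the largest fold of all members. It stood at 4.76, 4.91 and 2.32 RPKM in inputs 1 to 3 and at 32.9, 12.04 and 8.34 RPKM in IP 1 to 3. The groups did not overlap, and within the challenges the IP was 2.45 to 6.91 times the input. The input libraries averaged 3.99 ± 1.45 RPKM and the IP libraries 17.8 ± 13.2 RPKM (SD, n = 3 each). The fitted log2 fold was 1.73 (SE 0.45, limma adjusted p = 0.0624, and 0.0361 with the replicate block). Without IP 1, its highest library, the fold was 1.19 (adjusted p = 0.0409). Even in IP 1, Hspa1a stayed far below the constitutive Hspa8, at 3247 RPKM.

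Hspa1b, a near-identical copy of Hspa1a, stood at 1.50, 1.04 and 1.06 RPKM in the inputs and at 5.04, 2.89 and 1.29 RPKM in IP 1, 2 and 3. IP 3 lay within the range of the inputs, although the IP was above its own input in all 3 challenges. Its log2 fold was 0.79 (SE 0.33, limma adjusted p = 0.184, and 0.11 with the block). Reads that fit both copies could have been divided between them, and how the authors treated such reads is not given in the sources used here, so the split between Hspa1a and Hspa1b is uncertain.

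The likeness of the pair extends to their promoters, shown here because Hspa1a carries the largest fold and its reads are hard to tell from those of Hspa1b. The 250 bases before each start site come from RefSeq (GRCm38.p6, chr17:34972157-34972406 and chr17:34959239-34959488, both on the minus strand, while the expression table was made on another build). Capitals mark a heat shock element pair, the letters GAANNTTC or TTCNNGAA, a short form of the element to which HSF1 binds.
Hspa1a: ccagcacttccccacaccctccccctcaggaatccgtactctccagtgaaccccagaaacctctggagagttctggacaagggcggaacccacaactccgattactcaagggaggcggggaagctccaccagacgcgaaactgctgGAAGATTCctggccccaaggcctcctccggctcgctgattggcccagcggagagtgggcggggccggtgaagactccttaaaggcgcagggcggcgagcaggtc
Hspa1b: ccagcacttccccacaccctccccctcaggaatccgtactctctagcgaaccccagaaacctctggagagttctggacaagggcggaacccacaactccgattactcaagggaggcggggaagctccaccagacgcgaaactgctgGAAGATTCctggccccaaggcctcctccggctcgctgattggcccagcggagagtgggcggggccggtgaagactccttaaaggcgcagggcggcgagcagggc
The stretches differ at 3 of 250 bases, 98.8% identity, and both hold the pair starting 104 bases before the start site. Of 80 member symbols, 67 had a promoter in the RefSeq table, and 16 of them, or 23.9%, held such a pair on either strand, where 14.5% of all 27025 symbols of the RefSeq table did. Only the 250 bases before each start site were searched, and a symbol counted when any of its start sites matched. The 16 had a median log2 fold of 0.00, from -0.36 to 1.73, and the members with a window but no pair a median of -0.18. A match describes letters in this stretch and is not a measured binding site.

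Hspa1l, a relative of Hspa1a known from testis, was higher in IP in the blocked fit. It stood at 2.30, 3.48 and 4.18 RPKM in inputs 1 to 3 and 4.75, 6.88 and 11.96 RPKM in IP 1 to 3, with no overlap and an IP of 1.98 to 2.86 times the input. The log2 fold was 0.98 (SE 0.32, limma adjusted p = 0.108, 0.0495 with the block). Here IP 3 was the highest library and IP 1 the lowest of the IP libraries, the reverse of Hspa1a. Hspa1l lies next to Hspa1a on the genome, on the opposite strand. The stretches searched before their start sites do not overlap (GRCm38.p6, chr17:34972157-34972406 for Hspa1a and chr17:34972453-34972702 for Hspa1l). Use of strand in the counting is not stated, and whether any reads were shared between the genes was not tested.

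Hspa8, the constitutive Hsp70 of neurons, was the most abundant member. It stood at 1666, 1618 and 1556 RPKM in the inputs and 3247, 2247 and 1989 RPKM in IP 1, 2 and 3. Every IP was above every input, by 1.28 to 1.95 times within the challenges, yet the log2 fold of 0.60 (SE 0.43) did not pass (limma adjusted p = 0.429, and 0.375 with the block). Hspa8 alone took 24.3% to 26.8% of the summed RPKM of all members in the inputs and 30.6% to 38.9% in the IP libraries. Without Hspa8, the members summed to 4435 to 5042 RPKM in the inputs and 4440 to 5091 RPKM in the IP libraries, ranges that overlapped nearly in full.

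Hspa5 (BiP), the Hsp70 of the endoplasmic reticulum, stood at 69.7, 55.8 and 75.1 RPKM in the inputs and 190, 96.9 and 103 RPKM in IP 1, 2 and 3. The groups did not overlap, with the widest gap in challenge 1. Its log2 fold was 0.89 (SE 0.30, limma adjusted p = 0.115, 0.0762 with the block) and 0.59 without IP 1. Its promoter is shown as that of the other inducible Hsp70 with separated groups, read from RefSeq (GRCm38.p6, chr2:34771840-34772089, plus strand). Capitals mark the endoplasmic reticulum stress element, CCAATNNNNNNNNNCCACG.
Hspa5: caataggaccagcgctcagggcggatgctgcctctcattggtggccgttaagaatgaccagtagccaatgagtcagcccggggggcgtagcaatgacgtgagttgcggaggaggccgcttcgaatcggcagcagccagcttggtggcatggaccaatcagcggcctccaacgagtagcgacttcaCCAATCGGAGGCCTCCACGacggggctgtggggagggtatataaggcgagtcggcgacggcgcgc
The element starts 65 bases before the start site. It was found in 2 of the 67 member symbols (Hspa5 and Dnajc3), or 2.99%, and in 0.13% of all symbols. Dnajc3, an inhibitor of the kinase PERK with a J-domain, had a log2 fold of -0.22 (limma adjusted p = 0.703), so the bearers of the element lay on opposite sides of 0.

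Hspa9 (mortalin), the mitochondrial Hsp70, stood at 69.4, 78.6 and 70.9 RPKM in the inputs and 128, 89.2 and 73.4 RPKM in IP 1, 2 and 3. IP 3 lay within the input range, and the log2 fold was 0.37 (SE 0.26, limma adjusted p = 0.42). The Hsp110 gene Hspa4 stood at 56.1, 76.3 and 97.9 RPKM in the inputs and 148, 122 and 122 RPKM in IP 1, 2 and 3. Its groups did not overlap, and its log2 fold was 0.79 (SE 0.27, limma adjusted p = 0.114, 0.106 with the block). Hsph1, the main Hsp110, stood at 232, 265 and 286 RPKM in the inputs and 422, 290 and 310 RPKM in IP 1, 2 and 3, again without overlap but by a narrow margin in challenges 2 and 3 (log2 fold 0.37, limma adjusted p = 0.463). The third Hsp110 gene, Hspa4l, had a fold of 0.25 (adjusted p = 0.568), with an IP above its input in challenges 1 and 2 alone. The remaining members of the family, Hspa2, Hspa12a, Hspa12b, Hspa13 and Hspa14, had folds between -0.06 and 0.22.

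**Figure D2:**
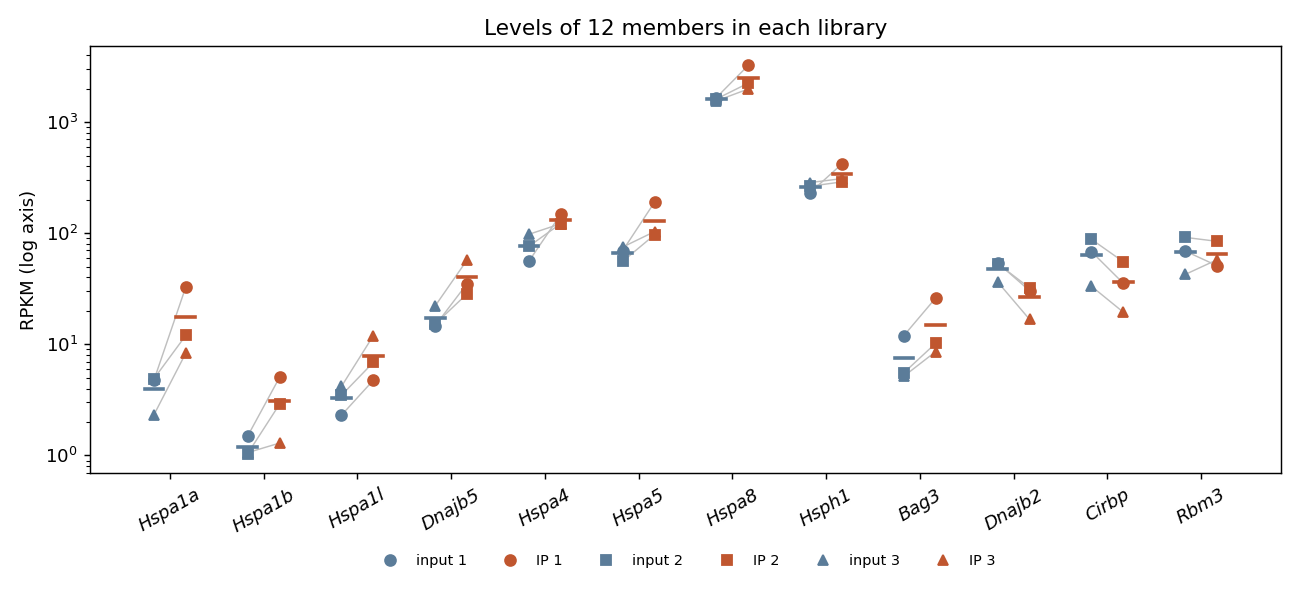
RPKM (log axis) of 12 members in each library; blue points are inputs, orange points IP libraries, shapes mark the warm challenge, grey lines join the libraries of a challenge and short bars are group means. Hspa1a runs from 2.32 to 4.91 RPKM in the inputs and from 8.34 to 32.9 RPKM in IP, while Rbm3 overlaps between the fractions.

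Most J-domain genes had negative folds, as did most genes of the table. Of 38 tested, 8 had a positive and 30 a negative fold, with a median of -0.28, beside 8040 negative folds among 12328 genes and a median of -0.18. By class the median was -0.21 for 4 Dnaja, -0.18 for 10 Dnajb and -0.28 for 24 Dnajc genes. After median scaling these became -0.03, -0.01 and -0.10. In the unblocked fit 0 of the 38 passed, and in the blocked fit 1 was higher and 1 lower.

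Dnajb5, a J-domain partner of Hsp70 that also binds the histone deacetylase HDAC4, had the largest fold of this class. It stood at 14.7, 15.2 and 22.2 RPKM in inputs 1 to 3 and 35.2, 28.5 and 57.4 RPKM in IP 1 to 3. Every IP was above every input, by 1.87 to 2.59 times within the challenges, and challenge 3 gave the highest value in both fractions. The log2 fold was 1.13 (SE 0.29, limma adjusted p = 0.0626, 0.0345 with the block, and 0.0434 without IP 1 and without the block). Unlike Hspa1a, its ratio of IP to input varied little between the challenges.

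Dnajb2 (HSJ1), a neuronal J-domain protein that binds ubiquitin and steers clients to the proteasome, fell in the blocked fit. It stood at 54.2, 53.3 and 36.5 RPKM in inputs 1 to 3 and 30.4, 32.2 and 16.8 RPKM in IP 1 to 3. The groups did not overlap, and the IP was 0.46 to 0.604 times the input. The log2 fold was -0.87 (SE 0.29, limma adjusted p = 0.115, 0.0487 with the block). With median scaling added to the block the adjusted p was 0.088, which ended the call. Dnajb9, an inducible J-domain partner of Hspa5, stood at 21.5, 15.7 and 23.0 RPKM in the inputs and 15.2, 9.12 and 14.1 RPKM in IP 1, 2 and 3 (log2 fold -0.62, limma adjusted p = 0.179). Hspa5 and Dnajb9 were thus on opposite sides of 0, with separated groups in both cases and no call in either.

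None of the most abundant Dnaja and Dnajb genes passed. Dnajb1, the heat-inducible partner of Hspa1a, stood at 144, 133 and 99.2 RPKM in the inputs and 109, 102 and 92.0 RPKM in IP 1, 2 and 3 (log2 fold -0.29, limma adjusted p = 0.498). Dnajb1 was below its own input in all 3 challenges, where Hspa1a was above it. Dnaja1, another partner of Hsp70, stood at 116, 165 and 229 RPKM in the inputs and 198, 174 and 173 RPKM in the IP libraries (0.14, adjusted p = 0.811). Dnajb6, which keeps polyglutamine proteins soluble, averaged 154 ± 34.5 RPKM over inputs and 151 ± 37.0 RPKM over IP libraries (SD, n = 3 each), with a log2 fold of -0.03. Dnaja2 and the mitochondrial Dnaja3 had folds of -0.31 and -0.32 (limma adjusted p = 0.494 and 0.479).

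The J-domain genes with known synaptic roles did not pass in either direction. Dnajc5, the cysteine string protein of synaptic vesicles, stood at 88.2, 93.3 and 103 RPKM in the inputs and 87.7, 64.2 and 83.4 RPKM in IP 1, 2 and 3 (log2 fold -0.28, limma adjusted p = 0.497). All IP values lay below all inputs, in IP 1 by less than the spread of the inputs. Dnajc6 (auxilin), which recruits Hspa8 to clathrin coats, stood at 59.3, 57.2 and 68.5 RPKM in the inputs and 79.1, 52.8 and 54.6 RPKM in IP 1, 2 and 3 (-0.01, adjusted p = 0.989). Its partner Hspa8 had every IP above every input, while Dnajc6 did not. The lowest folds among Dnajc genes belonged to Dnajc1 (-0.73, limma adjusted p = 0.24), which sits in the endoplasmic reticulum membrane, and Dnajc28 (-0.68, adjusted p = 0.0905). The value of Dnajc1 rested on IP 2, at 0.42 RPKM, and was -0.31 without it and -0.31 with a pseudocount of 5. Dnajc28 was at 6.43 to 8.46 RPKM in the inputs and 4.11 to 4.39 RPKM in IP. Dnajc18 was at 34.4 to 36.0 RPKM in the inputs and 21.8 to 27.4 RPKM in IP (-0.52, adjusted p = 0.152).

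Among Dnajc genes, IP 1 took the opposite side from the other IP libraries in several cases. Dnajc15, a J-domain protein of the mitochondrial inner membrane, stood at 98.4, 90.2 and 62.6 RPKM in the inputs, at 48.9 RPKM in IP 1 and at 155 and 105 RPKM in IP 2 and 3. Dnajc30, another mitochondrial J-domain gene, stood at 24.9 RPKM in IP 1 and 63.8 and 66.6 RPKM in IP 2 and 3, with inputs from 43.3 to 58.9 RPKM. The mitochondrial co-chaperonin Hspe1 did likewise, at 470, 476 and 239 RPKM in the inputs, 299 RPKM in IP 1 and 699 and 551 RPKM in IP 2 and 3 (log2 fold 0.37, limma adjusted p = 0.639). Its partner Hspd1, which forms the chamber that Hspe1 closes, did not share this pattern, with 176, 173 and 161 RPKM in the inputs and 215, 207 and 153 RPKM in IP 1, 2 and 3 (0.16, adjusted p = 0.754). Among further mitochondrial members, Hspa9 and Dnajc11 were above their input in challenge 1, and Dnaja3 and Dnajc19 were below it. Dnajc4 and Dnajc24 were also below their input in challenge 1 alone. The promoter of Hspe1 is shown because few members hold its longer form of the heat shock element, again from RefSeq (GRCm38.p6, chr1:55087898-55088147, plus strand). Capitals mark overlapping element triplets, the letters GAANNTTCNNGAA or TTCNNGAANNTTC.
Hspe1: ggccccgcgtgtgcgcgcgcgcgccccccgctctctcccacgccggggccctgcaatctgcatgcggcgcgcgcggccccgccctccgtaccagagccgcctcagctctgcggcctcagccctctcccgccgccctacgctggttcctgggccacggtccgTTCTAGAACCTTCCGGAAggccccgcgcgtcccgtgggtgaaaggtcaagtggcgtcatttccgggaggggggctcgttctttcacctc
The first triplet starts 89 bases before the start site. Hspd1 is read from the opposite strand of the same stretch and holds the same triplets. A triplet was found in 3 of the 67 member symbols (Hspd1, Hspe1 and Dnajb6), or 4.48%, and in 0.514% of all symbols. The log2 folds of these 3 lay between -0.03 and 0.37, none past the threshold.

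For CCT subunits the sign of the difference varied with the challenge, and 0 of them passed. In challenge 1, all 8 members with a single entry (Cct2, Cct3, Cct4, Cct5, Cct6b, Cct7, Cct8 and Tcp1) were higher in IP than in input, with a median log2 difference of 0.49, where 4392 of all 12328 genes were higher. In challenge 2 the IP was higher for 2 of the 8 (median -0.09), beside 4596 of all 12328 genes (median -0.17). In challenge 3 the IP was higher for 0 of the 8 (median -0.19), beside 4882 of all genes (median -0.17). For 6 of the 8, IP 1 was above all 3 inputs, as it was for 2690 of all 12328 genes. Cct7 stood at 92.1, 139 and 107 RPKM in the inputs and 177, 131 and 92.5 RPKM in IP 1, 2 and 3 (log2 fold 0.21, limma adjusted p = 0.709, and -0.01 without IP 1). Cct3 had the largest fold of the family, 0.29 (adjusted p = 0.604), and 0.02 without IP 1. Tcp1, the alpha subunit of the ring, stood at 132, 172 and 161 RPKM in the inputs and 164, 143 and 128 RPKM in the IP libraries (-0.09, adjusted p = 0.861).

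Cct6a, a zeta subunit on 2 entries of the table, could not be followed across libraries. The larger of the 2 entries stood at 357, 463 and 529 RPKM in the inputs and 418, 400 and 393 RPKM in the IP libraries, and the smaller at 28.7 to 56.5 RPKM. The larger value was on the second entry in challenges 1 and 2 and on the first in challenge 3. Of 12 symbols on 2 entries, 11 had a larger entry that changed place between libraries. The fits of both Cct6a entries are therefore not read here. Leaving both out changed neither count of called members.

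The split by challenge can be set out by family. In challenge 1 the median difference was 0.83 for Hsp70 and Hsp110 genes and -0.61 for small heat shock genes, beside -0.22 for all genes. In challenge 2 these medians were 0.24 and 0.02, beside -0.17, and in challenge 3 they were 0.08 and 0.43, beside -0.17. The small heat shock medians include Hspb3, whose difference was partly built in by the filter. The 0.43 of challenge 3 is the value of Hspb3 itself. With Hspb3 counted, the order of these families differed between challenges. Among the 78 members outside Cct6a, IP 1 was the highest of the 6 libraries for 25, or 32.1%, where it was the highest for 15.6% of all genes tested. Within the Hsp70 and Hsp110 family IP 1 was the highest library for 12 of 14.

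**Figure D3:**
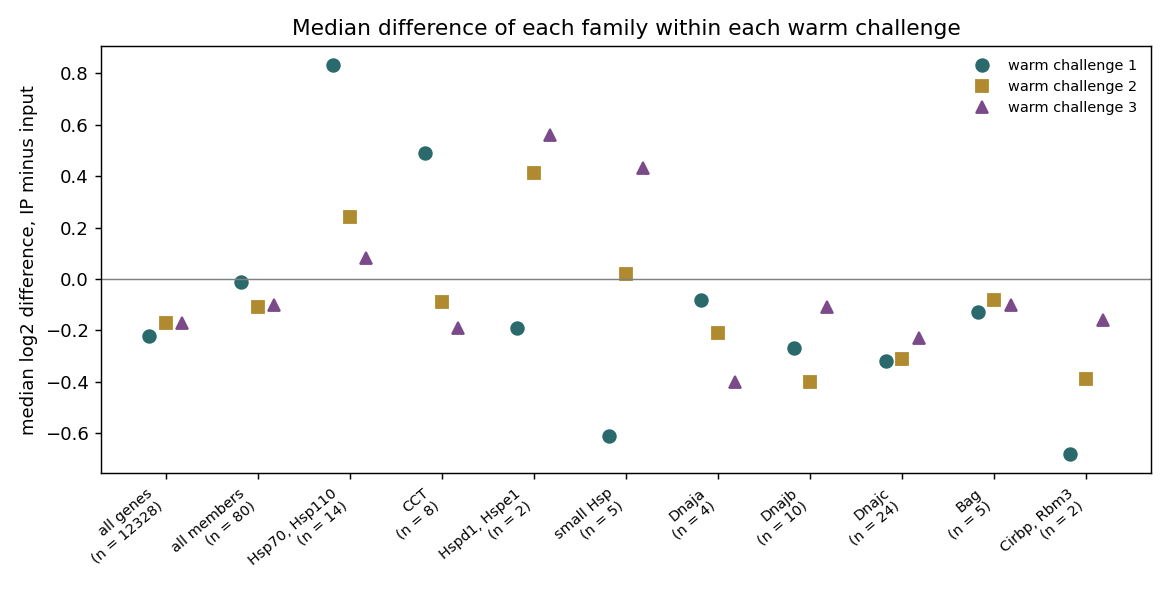
Median log2 difference, IP minus input, of each family within each warm challenge, where n is the number of members tested. The small heat shock medians include Hspb3, whose difference was partly built in by the filter. Hsp70 and Hsp110 genes are above 0 in all 3 challenges (0.83, 0.24 and 0.08), CCT genes in the first alone (0.49), and Dnajc genes in none.

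Small heat shock genes, which hold unfolded proteins without ATP, were few and mixed, and 0 of 5 passed. Hspb8 stood at 45.5, 30.4 and 23.8 RPKM in the inputs and 41.2, 67.8 and 50.9 RPKM in IP 1, 2 and 3. It was below its input in challenge 1 and above it in challenges 2 and 3 (log2 fold 0.69, SE 0.29, limma adjusted p = 0.187). Hspb8 works in a complex with the co-chaperone Bag3. Hspb3 stood at 0.594, 0.55 and 0.558 RPKM in the inputs and 2.32, 2.13 and 1.10 RPKM in IP (log2 fold 0.83, limma adjusted p = 0.0742, 0.0384 after quantile normalization). It passed the filter only through IP, so this difference was partly built in. Hspb1 (Hsp27) was at 4.70 to 7.08 RPKM in the inputs, 1.69 RPKM in IP 1 and 6.46 and 6.02 RPKM in IP 2 and 3 (-0.32, adjusted p = 0.648). Hspb6 and Hspb11, the latter a part of intraflagellar transport despite its symbol, had folds of -0.15 and -0.18.

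Cryab, the abundant small heat shock gene of oligodendrocytes, carries a crystallin symbol and is not a member. It stood at 264, 214 and 183 RPKM in the inputs and 33.1, 49.1 and 27.4 RPKM in IP 1, 2 and 3. It was lower in IP, with a log2 fold of -2.59 (SE 0.28, limma adjusted p = 0.00496, 0.00898 with the block and 0.00618 without IP 1). Oligodendrocyte markers were lower in the same libraries, with 9 of 12 past the threshold, where 3.29% of all genes were lower. Their summed level was 1143 to 1269 RPKM in the inputs and 388 to 568 RPKM in IP.

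BAG genes were also mixed, with 0 of 5 past the threshold. Bag3, the heat-inducible BAG protein that links Hspb8 and Hsp70 to autophagy, stood at 12.01, 5.55 and 5.17 RPKM in the inputs and 26.2, 10.2 and 8.62 RPKM in IP 1, 2 and 3. The IP exceeded its own input in all 3 challenges, yet the groups overlapped because input 1 was above IP 2 and IP 3. Its log2 fold was 0.83 (SE 0.42, limma adjusted p = 0.266, 0.0549 with the block, and 0.0491 with the block and median scaling). Without IP 1 the fold was 0.37. Bag2, an inhibitor of the ubiquitin ligase CHIP, was at 12.3 to 18.2 RPKM in the inputs and 8.88 to 10.8 RPKM in IP (-0.57, adjusted p = 0.156). Bag4 stood at 21.7, 21.6 and 22.0 RPKM in the inputs and 19.8, 13.4 and 11.3 RPKM in IP 1, 2 and 3 (-0.56, adjusted p = 0.188, and 0.0337 without IP 1). Bag1, a nucleotide exchange factor of Hsp70, and Bag5 had folds of -0.29 and 0.00 and overlapping groups.

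The heat shock factors, which switch on chaperone genes, did not pass. Hsf1 stood at 25.7, 23.8 and 37.4 RPKM in the inputs and 25.1, 26.1 and 34.1 RPKM in the IP libraries (log2 fold -0.01, SE 0.25, limma adjusted p = 0.988). The third challenge gave the highest Hsf1 value in both fractions. Hsf2 was at 13.4 to 15.0 RPKM in the inputs and 10.4 to 12.8 RPKM in IP, without overlap (-0.29, adjusted p = 0.413). The Hsp90 co-chaperones Ahsa1, which speeds the ATPase of Hsp90, and Chordc1 were both below their own input in all 3 challenges, with folds of -0.15 and -0.23 (adjusted p = 0.76 and 0.603). Both had overlapping groups.

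Hsp90 genes, which fold kinases and steroid receptors downstream of Hsp70, had 0 of 4 past the threshold and a median log2 fold of 0.21. Hsp90ab1, the constitutive cytosolic form, stood at 843, 830 and 718 RPKM in the inputs and 1279, 964 and 846 RPKM in IP 1, 2 and 3 (0.35, limma adjusted p = 0.583), without overlap but with IP 3 barely above input 1. Hsp90aa1, the inducible form, stood at 593, 648 and 634 RPKM in the inputs and 1030, 669 and 534 RPKM in IP 1, 2 and 3 (0.20, adjusted p = 0.781, fold -0.06 without IP 1). IP 1 was its highest library, as for 6 of the 8 CCT members. Hsp90b1 of the endoplasmic reticulum and Trap1 of mitochondria had folds of 0.14 and 0.21. Among 24 other co-chaperones of Hsp70 and Hsp90, 0 were higher and 0 lower, with a median of -0.07. Without IP 1 there was 1 lower (Nudcd3, limma adjusted p = 0.0348), where 10.2% of all genes were lower. With all libraries, 0 were called among 13 folding enzymes of the endoplasmic reticulum (median 0.21), 7 prefoldin and related genes (median -0.15) and 9 mitochondrial co-chaperones and proteases (median -0.05). Without IP 1, 1 of the mitochondrial genes was lower (Grpel2, limma adjusted p = 0.034), again beside 10.2% of all genes.

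Textbook targets of HSF1 lay on both sides of 0. Of 22 tested, members and others together, 0 were higher and 1 was lower (Cryab), with 15 positive and 7 negative folds and a median of 0.15, which became 1 higher (Hspa1a) and 1 lower in the blocked fit. Among all genes tested, 4288 of 12328 folds were positive. All IP values lay above all inputs for 4 of the 22 (Hspa1a, Hspa8, Hsph1 and Hsp90ab1) and below them for 1 (Cryab), where 6.85% and 23.5% of all genes did so. Above their input in every challenge stood 6 of the 22 (Hspa1a, Hspa1b, Hspa8, Hsph1, Hsp90ab1 and Bag3), where 14% of all genes did so. Below it in every challenge stood 4 (Dnajb1, Chordc1, Ahsa1 and Cryab), where 37.5% of all genes did so.

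**Figure D4:**
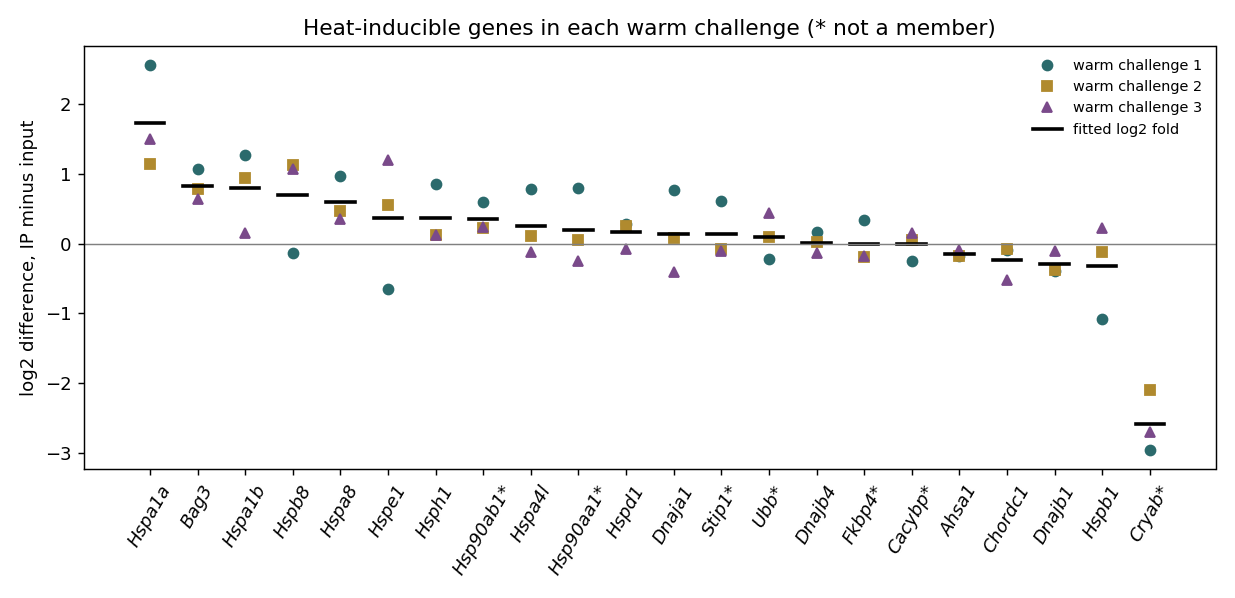
Log2 difference, IP minus input, of 22 textbook heat-inducible genes in each warm challenge, with the fitted log2 fold as a black bar; an asterisk marks genes that are not members. Hspa1a is at the upper end (1.73), Cryab at the lower (-2.59), and 12 of the 22 genes have points on both sides of 0.

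The cold-inducible genes Cirbp and Rbm3 did not pass, and their patterns across the challenges were unlike. Cirbp stood at 68.4, 88.2 and 33.4 RPKM in inputs 1 to 3 and 35.5, 55.4 and 19.5 RPKM in IP 1 to 3. The IP was 0.519 to 0.628 times the input within each challenge, but the groups overlapped, with both fractions highest in challenge 2 and lowest in challenge 3. The log2 fold was -0.78 (SE 0.43, limma adjusted p = 0.305), and 0.0556 was the adjusted p with the block, just short of the threshold. With median scaling added to the block, the fold was -0.6 and the limma adjusted p was 0.108. Rbm3 stood at 69.2, 91.8 and 42.6 RPKM in the inputs and 51.1, 84.6 and 57.8 RPKM in IP 1, 2 and 3 (log2 fold -0.04, SE 0.32, adjusted p = 0.963). It was below its input in challenges 1 and 2 and above it in challenge 3. In the inputs both genes were highest in challenge 2 and lowest in challenge 3, and the difference between their folds was not tested.

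The Cirbp promoter is shown for its cold-responsive motif (RefSeq, GRCm38.p6, chr10:80167589-80167838, plus strand). Capitals mark TCCCCGCC, described as a mild-cold-responsive element of this gene.
Cirbp: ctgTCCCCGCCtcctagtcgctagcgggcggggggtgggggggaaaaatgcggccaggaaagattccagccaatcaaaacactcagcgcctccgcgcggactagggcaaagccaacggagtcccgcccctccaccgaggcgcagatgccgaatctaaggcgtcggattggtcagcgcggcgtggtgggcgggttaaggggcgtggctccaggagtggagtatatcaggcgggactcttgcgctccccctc
The motif starts 247 bases before the start site. It was found on either strand for 5.37% of all symbols and for 11 of the 67 member symbols, or 16.4%. These were Bag3, Cirbp, Dnaja1, Dnajb4, Dnajb5, Dnajb14, Dnajc8, Dnajc14, Hspa1a, Hspa1b and Hspa1l. The 11 had a median log2 fold of 0.14, from -0.78 to 1.73, and the members without it a median of -0.11. Of 24 other RNA-binding genes with Rbm symbols, 0 were higher and 0 lower, with a median of -0.05. Their range ran from -0.78 for Rbm8a, a part of the exon junction complex, to 1.08 for Rbm39, a splicing factor (limma adjusted p = 0.0808 and 0.0703). Without IP 1, 1 of them was higher (Rbm39, adjusted p = 0.0494) and 2 were lower (Rbm33 and Rbm41, adjusted p = 0.0385 and 0.0337), where 3.62% of all genes were higher and 10.2% lower.

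The tissue label names neurons, but markers of oligodendrocytes and astrocytes were listed, 12 of 12 and 10 of 10, and those of microglia at low levels. Every listed gene has a value in all 6 libraries, so presence in both fractions follows from being listed. Besides the oligodendrocyte markers, the summed level of 10 astrocyte markers was 314 to 428 RPKM in the inputs and 294 to 320 RPKM in IP. Of the 10, limma called 0 without the block, 1 lower with it (Aqp4, adjusted p = 0.04) and 3 lower without IP 1 (Aqp4, Fgfr3 and Gfap), and their median log2 fold was -0.48. Among all genes, 3.29%, 3.99% and 10.2% were lower in these fits. The summed level of 10 neuronal markers, most of it Snap25, was 4502 to 6148 RPKM in the inputs and 4385 to 7868 RPKM in IP. Of these 10, 9 had a positive fold, 4 had all IP values above all inputs, and 7 were above their input in all 3 challenges, with a median of 0.53. Among all genes, 6.85% had all IP values above all inputs and 14% were above their input in all 3 challenges. Limma called 0 of the 10 neuronal markers with all libraries and 2 higher without IP 1 (Nefm and Slc32a1), where 3.62% of all genes were higher. The 7 ependymal markers summed to 24.4 to 105 RPKM and 20.1 to 51.2 RPKM (1 lower), and 9 microglial markers to 12.4 to 27.0 RPKM and 8.53 to 16.1 RPKM (0 called among 4 tested). The globin and erythroid genes summed to 14.1 to 50.3 RPKM in the inputs and 202 to 567 RPKM in IP, with 3 of 3 tested higher. Of 10 endothelial markers 1 was listed, at 0.28 to 0.626 RPKM, and 0 were tested. Of 7 mural markers 2 were listed, and the 1 tested was lower. The part of these cells in the folds of Hspa1a, Hspa1l, Dnajb5, Dnajb2 and Cirbp was not tested.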

How the data were processed

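Total RNA (input) and RNA bound to phosphorylated S6 (IP) were sequenced from 3 warm challenges, 6 libraries in all. The authors deposited 1 table of gene RPKM on a linear scale with 1 column per library, per the file headers. The submitters' processing notes name build mm9. Which aligner, read counter and annotation were used is not given in the sources used here. Libraries were made from amplified cDNA, per the labels' protocols. Every listed value is at least 0.101 RPKM, so genes that fell to the floor in any library are missed. RPKM holds no read counts, and the depth behind each value is unknown here.

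Values were analysed as log2(RPKM + 1) for entries with at least 1 RPKM in 3 or more libraries, with limma 3.58.1 (mean-variance trend, two-sided) in R 4.3.3, and adjusted over all 12328 entries tested. Counts and plots were made in Python 3.11.15 (pandas 2.3.3, numpy 2.4.6, matplotlib 3.10.9). The test was tried on simulated data, in 10 draws with 200 changed genes each, in equal numbers at 2-fold and 4-fold. Changed genes were drawn only from those with an input mean above about 10 RPKM, with independent noise and no effect of the challenge. The members, lists and naming rule were chosen with earlier results of these data known. From the list of heat-inducible genes 1 gene is not reported here and was left out of its counts. The text names a fixed set of members, those past the threshold with or without the block, the 2 of each family with the largest fold, the smallest p and the highest input level, and the Hsp90 genes and Cryab; other members were named after their values were seen.

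Input and IP of a number come from the same warm challenge per the labels and were taken as paired on that ground. Deviations from the group means correlated by 0.055, 0.612 and 0.272 across genes for numbers 1, 2 and 3. IP 1 correlated more with input 3 (0.177) than with its own input, and input 1 more with IP 2 (0.164), so the data do not show the pairing of challenge 1. The fit given first has no block, and values from the fit with the replicate block are given where it changes a call. Motifs were searched on both strands in RefSeq promoters (GRCm38.p6). Alternatives were another pseudocount, filter, scaling or variance model, the block, and each library left out.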

Additional observations from a re-analysis of the deposited data

How the results depend on the processing

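The choice of scaling moved the median log2 fold of the members more than any other setting listed here. That median was -0.08 and became 0.09 after median scaling, 0.09 with the replicate block and median scaling, and -0.02 after quantile normalization. Against 0 members higher and 0 lower, the replicate block gave 3 higher and 1 lower (all genes 1.33% and 3.99%). The block with median scaling gave 4 higher and 0 lower (all genes 1.7% and 1.35%). Quantile normalization gave 1 higher (Hspb3, whose difference was partly built in by the filter), where 1.05% of all genes were higher. Leaving out 1 library at a time gave 0 to 3 higher, 0 to 1 lower and a median of -0.11 to -0.04. The highest counts came without IP 1, where 3.62% of all genes were higher and 10.2% lower. Of the members tested in that fit, 3.8% were higher and 1.27% lower. Median scaling, alone or with the block, turned the folds of Ahsa1 to 0.02, Cct5 to 0.16, Dnajb6 to 0.14, Dnajc6 to 0.17, Hsf1 to 0.16, Rbm3 to 0.14 and Tcp1 to 0.08. Quantile normalization turned Dnajc6 to 0.03 and Hsf1 to 0.07.

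Leaving out single libraries also turned the sign of folds that did not pass. Their ranges were -0.54 to 0.12 for Bag1, -0.20 to 0.17 for Bag5, -0.18 to 0.20 for Cct5, -0.01 to 0.45 for Cct7, -0.10 to 0.39 for Dnaja1, -0.23 to 0.18 for Dnajb6 and -0.20 to 0.63 for Dnajc15. For Dnajc6 the range was -0.19 to 0.09, for Hsf1 -0.14 to 0.18, for Hspb1 -0.58 to 0.15, for Hspb11 -0.31 to 0.05, for Rbm3 -0.34 to 0.21, for Hsp90aa1 -0.06 to 0.41 and for Hsp90b1 -0.13 to 0.37. The cause was not tested. Leaving out both Cct6a entries was chosen after seeing the data. Without read counts, how far depth limits the genes of low RPKM, Hspa1b and Hspb3 among them, is unknown.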
